A study of Mus musculus with 8 samples.

Results

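The replication-dependent histone genes were examined in RNA-seq libraries of donor T cells, sorted from recipient spleens at day 6 of hematopoietic cell transplantation. They were chosen by gene symbol, as every row of the deposited tables whose symbol begins with Hist1h, Hist2h, Hist3h or Hist4h. Only 5 of the 25078 rows carry such a symbol (Hist1h2al, Hist1h2an, Hist1h2bp, Hist1h4m and Hist1h4n), because the tables give most histone genes under newer symbols such as H1f2 (older name Hist1h1c) or H4c9 (Hist1h4i). The choice was therefore extended to rows whose older symbol in RefSeq fits the same pattern, which added 56 rows and gave 61 genes. Among them, Hist1h2al and H2bu1-ps are typed as processed pseudogenes in GENCODE, and neither had enough counts to be tested. The position of each of the 61 matched the GENCODE gene of that older name on mm10. A further 9 genes named this way in GENCODE were not analysed here.

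The donors were C57BL/6 mice, either wild type (WT) or carrying floxed Stat3 with Cre recombinase under Cd4 regulatory sequences (STAT3KO), so that the deletion is made in T-lineage cells and reaches both CD4 and CD8 T cells. The recipients were irradiated WT BALB/c mice, which in all 4 groups also received T cell-depleted WT bone marrow. The labels give no age for donors or recipients. CD4 and CD8 T cells of each donor genotype make 4 groups with 2 libraries each. Per the methods each library pools cells of several recipients. P-values of a fit with no term for the replicate number measure the spread between pools together with any difference between replicate numbers.

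Histones package DNA into nucleosomes, in which the core types H2A, H2B, H3 and H4 form the protein spool and the linker type H1 binds outside it. The genes studied here lie in gene clusters, are copied mainly during S phase, when new DNA must be packaged, and mostly lack introns. Their mRNAs do not usually end in a poly(A) tail. They end just after a short stem-loop, which stem-loop binding protein (SLBP) recognises, and libraries that select poly(A) RNA therefore hold only a part of these transcripts. Replication-independent histone variants are mostly, but not in every case, made as polyadenylated mRNAs only.

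The stem-loop is shown first, because a kit that captures poly(A) RNA, such as the one the methods name, holds little of transcripts that end there. In the GENCODE transcripts, 38 of the 61 genes held the histone 3′ stem-loop consensus, searched on the transcript strand. Over all 141767 mouse transcripts it was found in 69, or 0.0487%. It took 6 forms among the 38 genes, with 20, 7, 6, 2, 2 and 1 genes. One gene is given for each of 5 forms, as the window of the stem-loop with 5 bases on either side, 5′ to 3′ on the transcript strand, with the stem-loop in capitals.
H1f2 (form of 20 genes, chr13:23739507-23739532, plus strand): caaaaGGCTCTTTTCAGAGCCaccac
H4c3 (form of 7 genes, all H4, chr13:23698084-23698109, minus strand): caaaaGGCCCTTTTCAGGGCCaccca
H3c6 (form of 6 genes, chr13:23561898-23561923, minus strand): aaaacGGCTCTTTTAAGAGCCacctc
H4c9 (form of 2 genes, both H4, chr13:22040961-22040986, minus strand): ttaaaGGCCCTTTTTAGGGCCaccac
H2ac20 (form of 1 gene, chr3:96220413-96220438, minus strand): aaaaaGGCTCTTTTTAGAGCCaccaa
The gene models that the authors counted end close to this element. For 37 genes the stem-loop could be placed on the genome, and in 34 of them the deposited model ended within 10 bases after it. The exceptions were H3c6, Hist1h2bp and H2bc6, whose models ran 428, 1275 and 1861 bases further. GENCODE transcripts of several genes continue beyond the stem-loop, by 840 bases for H1f2 and 330 bases for H4c9, and reads from such longer ends lie outside the counted models. In 14 of the 61 genes a GENCODE transcript held a poly(A) signal (AATAAA or ATTAAA) in its last 40 bases. These 14 genes took 60.7% of all counts of the 61. The absence of a stem-loop match in the other 23 of the 61 genes says only that these letters are not in the annotated transcript.

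The total count lay between 20171396 and 23282757 per library, and the 61 genes together held between 854 and 2709 counts. Stat3, the targeted gene, fell in both compartments (log2 fold change -1.63, edgeR adjusted p 0.000753, in CD4 and -1.72, adjusted p 0.00536, in CD8 T cells). T cell markers were present throughout, with a summed level of 4211 to 4727 CPM (TMM-scaled counts set relative to a common library size) over 8 genes in the table, while the B cell markers Ms4a1, Cd79a and Ebf1 stayed at or below 0.547 CPM (Cd22 and Cd79b, of the same list, reached 168 and 12.9 CPM) and the 4 globin genes were at 0 counts. The headers give the replicate 1 and the replicate 2 libraries separate blocks of library numbers, and what the blocks mark is not stated.

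Histone mRNA was scarce in these libraries. By RPKM, which corrects for length, 41 of the 61 genes had a mean below 1 over the 8 libraries. The linker histone gene H1f2 had the highest level, with a mean of 34.0 RPKM and a range of 15.8 to 53.8. The core histone genes H4c9 (mean 11.2 RPKM, 3.55 to 17.8), H2aw (9.98 RPKM, 6.57 to 12.5) and H2bc4 (7.34 RPKM, 2.89 to 12.4) came next, and their ranges overlapped. The H1 genes H1f4, H1f3 and H1f5 followed with means of 5.63, 4.49 and 3.12 RPKM, beside the H2B genes H2bu2 (3.82), H2bc8 (3.78) and H2bc21 (3.49). No H3 gene reached a mean of 1 RPKM.

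Of the 61 genes, 29 passed the filter on low counts and were tested, 5 of 6 H1, 7 of 15 H2A, 9 of 17 H2B, 3 of 10 H3 and 5 of 13 H4 genes. By cluster these were 22 of 51 genes of Hist1 on chromosome 13, 4 of 6 of Hist2 on chromosome 3, 2 of 3 of Hist3 on chromosome 11 and the only gene of Hist4, H4f16, on chromosome 6. The tested genes had total counts of 60 to 4324 over the 8 libraries. Only 12 of them had at least 10 counts in every library, so the other 17 passed through some of the libraries. The 32 genes left out had totals of 0 to 58 counts and no more than 14 counts in any library. Among them, H1f6 and H2bc1, known from the testis, were at 0 in all 8 libraries, which allows up to 0.149 CPM in a library by counting error (3 counts). A single value of 10 counts has an exact 95% Poisson interval of 4.80 to 18.4, so that small differences of most genes could not be detected at this depth.

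Members of a type also share sequence, and reads that match several copies can be lost or split in counting. Stretches of 51 bases, the read length, were taken over whole GENCODE transcripts. For H1 genes a median of 98.9% were found in no other gene's transcript. It was 35.3% for H2A, 57.4% for H2B, 42.9% for H3 and 61.3% for H4 genes. Where a transcript runs past the counted model, these shares also cover bases that were not counted. For the 29 tested genes the median was 68.1% (range 0 to 100%), and it was 34.9% for the 32 others. How the authors treated reads with several matches is not given in the sources used here, so counts of H2A, H2B, H3 and H4 genes are uncertain to that extent. Whether counting used the strand is not given either.

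**Figure D1:**
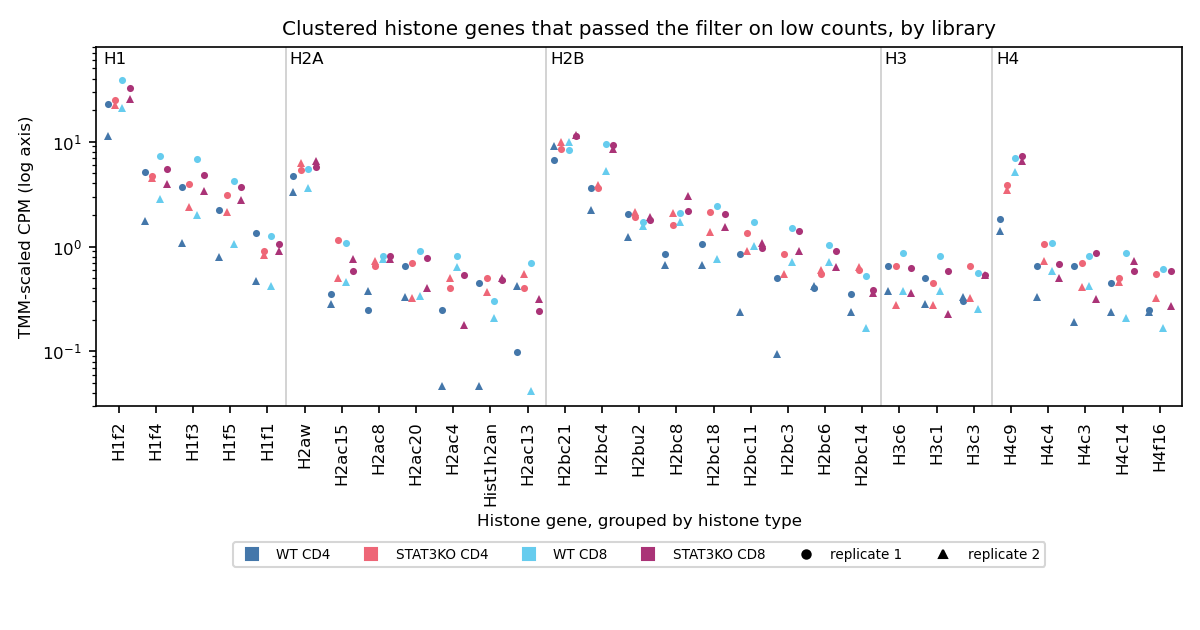
TMM-scaled CPM (log axis) of the 29 tested histone genes, grouped by histone type, with 1 point per library. Colours are the 4 groups, circles replicate 1 and triangles replicate 2. H1f2 lay above every other gene in each library, and the triangles of WT CD4 and WT CD8 T cells lay lowest for the H1 genes.

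The summed level of all 61 genes, which does not depend on the filter, read 67.0 CPM in replicate 1 and 40.4 CPM in replicate 2 of WT CD4 T cells, against 82.0 and 74.2 CPM with STAT3 deleted. In CD8 T cells the WT pair read 117 and 65.9 CPM and the STAT3KO pair 105 and 89.9 CPM. WT and STAT3KO did not overlap in CD4 T cells, whereas in CD8 T cells the 2 WT libraries lay on either side of the STAT3KO libraries. In a bulk sample, a smaller share of cells in S phase and less histone RNA per cell cannot be told apart.

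The H1 genes held 45.2% of these counts, the H2B genes 30.2%, H2A 11.5%, H4 9.95% and H3 3.18%. Within replicate number 1, the STAT3KO to WT ratio of the summed level in CD4 T cells was 1.07 for H1, 1.45 for H2A, 1.32 for H2B, 1.19 for H3 and 1.72 for H4 genes. Within replicate number 2 it was 2.10, 1.89, 1.53, 1.10 and 2.47. All 10 of these ratios were above 1. In CD8 T cells the same ratios were 0.809, 0.935, 1.02, 0.755 and 1.02 in replicate 1 and 1.35, 1.54, 1.37, 1.35 and 1.27 in replicate 2, so the direction turned with the replicate number for H1, H2A and H3. H1f2 alone held a large part of the sum, and without it the level of the other 60 genes read 44.1 and 29.01 CPM for the WT CD4 pair and 57.0 and 51.7 CPM for the STAT3KO CD4 pair.

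**Figure D2:**
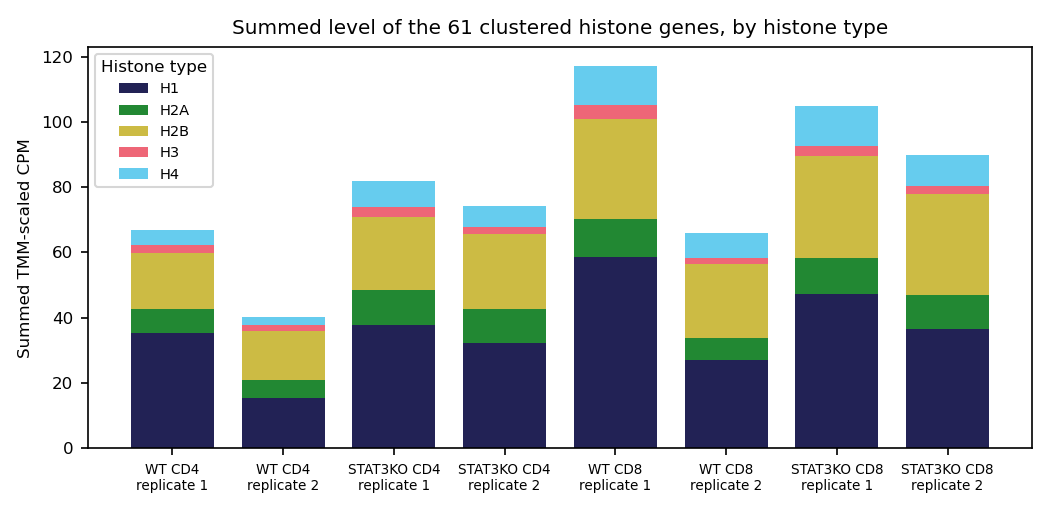
Summed TMM-scaled CPM of the 61 clustered histone genes in each of the 8 libraries, stacked by histone type. The WT CD4 replicate 2 library had the lowest sum (40.4 CPM) and the WT CD8 replicate 1 library the highest (117 CPM).

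Setting STAT3KO against WT in CD4 T cells compares histone mRNA between the donor genotypes in this compartment. The paper reports severe acute graft-versus-host disease in recipients of WT T cells, and mild disease with STAT3-deficient ones. Effects of the T cell genotype and of the recipient's disease therefore cannot be told apart, in CD4 or CD8 T cells. One gene, the core histone gene H4c9, was called higher. The WT CD4 pair read 1.85 and 1.42 CPM and the STAT3KO CD4 pair 3.90 and 3.47 CPM, a log2 fold change of 1.17 (SE 0.26, edgeR adjusted p 0.0257). The groups did not overlap. This is 1 of 29 tested histone genes, where 6.54% of all 12428 tested genes were called higher in CD4 T cells, and the count of histone genes is no larger a share than that. The call of H4c9 was lost without STAT3KO CD4 replicate 1 (adjusted p 0.140), without STAT3KO CD4 replicate 2 (0.0930), without WT CD4 replicate 2 (0.139) and in a fit of the 4 CD4 libraries alone (0.0742), with a log2 fold change between 0.99 and 1.26 in these fits. Over all alternatives its adjusted p lay between 0.00269 and 0.140.

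The H2B gene H2bc8 read 0.848 and 0.662 CPM in the WT pair against 1.60 and 2.10 CPM in the STAT3KO pair (log2 fold change 1.29, SE 0.36, adjusted p 0.0575). Its groups did not overlap either, and it was not called. In a fit with the replicate number as a block it was (adjusted p 0.0202), and H4c9 kept its call (adjusted p 0.00269), so that 2 of 29 histone genes were called higher against 16.5% of all genes. Both genes share sequence with other genes, with 71.3% and 50.4% of stretches unshared for H4c9 and H2bc8. These shares are over GENCODE transcripts of 727 and 618 bases, longer than the counted models of 403 and 464 bases. The share within the counted models was not measured.

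Most tested members leaned the same way without passing the test. The log2 fold change was above 0 for 26 of the 29 (52.1% of all tested genes). The median was 0.60 against 0.017 over all genes. Of the 29, 10 had fewer than 10 counts in both WT CD4 libraries and passed the filter through other groups. The filter can thus favour values above 0 in this comparison, and genes that share sequence are not independent. By type the median was 0.43 for H1, 0.83 for H2A, 1.04 for H2B, -0.11 for H3 and 0.82 for H4 genes. The highest value was that of H2ac4 (1.59, adjusted p 0.247), which had 5 and 1 counts in WT and 8 and 11 counts in STAT3KO libraries, followed by H2ac15 (1.36, adjusted p 0.208) and H2bc8. The lowest were H3c6 (-0.16), H3c1 (-0.11) and the linker histone gene H1f1 (-0.074). The most abundant gene, H1f2, read 22.9 and 11.3 CPM in the WT pair against 25.01 and 22.5 CPM in the STAT3KO pair (log2 fold change 0.47, SE 0.37, adjusted p 0.472). The STAT3KO libraries were close together, and one WT library lay near them and the other far below.

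For the other abundant members the same comparison also fell short of the threshold. H2bc21 of the Hist2 cluster read 6.69 and 9.07 CPM in the WT pair against 8.50 and 9.96 CPM in the STAT3KO pair (log2 fold change 0.23, adjusted p 0.514), and the groups overlapped. H2aw, the H2A gene of Hist3, had 4.69 and 3.31 CPM against 5.40 and 6.26 CPM (0.55, adjusted p 0.248), with no overlap. H2bc4 had 3.59 and 2.22 CPM against 3.65 and 3.84 CPM (0.37, adjusted p 0.547). The median over the members rested partly on single libraries, since it was 1.04 without WT CD4 replicate 1 and 0.40 at the lowest of the fits without one library.

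In CD8 T cells no histone gene was called by edgeR, with 0 of 29 at an unadjusted p under 0.05 and 0 called by DESeq2, where 2.07% of all genes were called by edgeR. With the replicate block the count was still 0, with 18.2% of all genes called. The log2 fold change was above 0 for 16 of the 29, and the median was 0.045 (-0.0071 over all genes). H4c9 read 7.003 and 5.18 CPM in the WT pair against 7.23 and 6.54 CPM in the STAT3KO pair (log2 fold change 0.18, SE 0.23, adjusted p 0.755), and H1f2 had 39.0 and 20.8 CPM against 32.3 and 25.5 CPM (-0.050, SE 0.36, adjusted p 0.964). For H1f2 the WT libraries enclosed the STAT3KO libraries.

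The highest CD8 values belonged to Hist1h2an (0.92), H2bc8 (0.45) and H2aw (0.43), and the lowest to H2ac4 (-1.03), H3c1 (-0.58) and H4c4 (-0.51). H2bc8 read 2.07 and 1.73 CPM in the WT pair against 2.17 and 3.02 CPM in the STAT3KO pair (adjusted p 0.523). The CD8 median was 0.67 without WT CD8 replicate 1 and -0.44 at the lowest of the fits without one library, so its sign rests on which WT library is used.

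**Figure D3:**
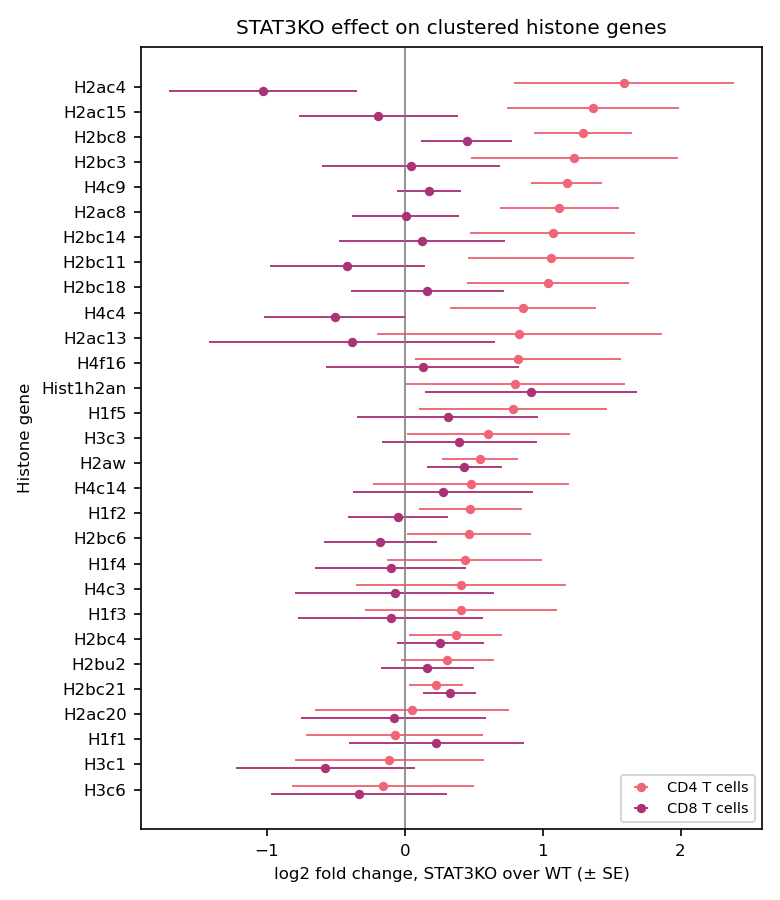
log2 fold change of STAT3KO over WT (± SE, edgeR) for the 29 tested histone genes in CD4 and CD8 T cells, ordered by the CD4 value. The CD4 points lie right of 0 for 26 genes and the CD8 points for 16 genes, and of all these values only that of H4c9 in CD4 T cells passed the test.

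Whether the STAT3KO effect differs between the compartments was tested as an interaction. No histone gene was called by edgeR, with 2 of 29 at an unadjusted p under 0.05 and 0 called by DESeq2, and 0% of all genes were called. With the replicate block 0 of 29 were called, where 3.24% of all genes were. The CD8 effect was below the CD4 effect for 26 of the 29, with a median difference of -0.52 (-0.020 over all genes). The filter can favour this direction too, since 10 of the 29 genes passed it without the WT CD4 libraries. H4c9 had a difference of -0.997 (SE 0.35, adjusted p 0.486, and 0.0913 with the block). The median difference was 0.20 without WT CD8 replicate 1, so its direction rests on that library.

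CD8 and CD4 T cells were compared within each genotype as a reference. In WT, 3 of 29 histone genes were called and all were higher in CD8 T cells, namely H4c9 (log2 fold change 1.90, SE 0.25, edgeR adjusted p 0.00166), H2bc4 (1.36, SE 0.33, adjusted p 0.0227) and H2bc8 (1.33, SE 0.36, adjusted p 0.0317), where 12.2% of all genes were called higher. The CD4 and CD8 libraries of WT did not overlap for any of these genes. With the block 8 of 29 were called, against 20.6% of all genes, and the added genes were H1f2 (log2 fold change 0.81, adjusted p 0.00633), H2ac4, H2ac8, H2bc3 and H2bc11. Of these, H2bc3 and H2bc11 were named after their values were seen. The value was above 0 for 28 of 29, with a median of 0.66 (0.0011 over all genes). The median was -0.085 without replicate 1 of WT CD8 T cells and 1.29 without replicate 2. The filter can favour values above 0 here as well, since 10 of the 29 genes passed it without the WT CD4 libraries. The count of calls was 1 without WT CD4 replicate 2 or WT CD8 replicate 1, and 5 without WT CD4 replicate 1.

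In STAT3KO T cells, H2bc4 (log2 fold change 1.25, SE 0.33, adjusted p 0.0464) and H4c9 (0.90, SE 0.24, adjusted p 0.0483) were called higher in CD8, 2 of 29, where 5.84% of all genes were. With the block the same 2 genes were called (adjusted p 0.00301 and 0.00438), against 14.4% of all genes. Without STAT3, H2bc4 read 3.65 and 3.84 CPM in the CD4 pair against 9.21 and 8.57 CPM in the CD8 pair, with no overlap. The value was above 0 for 21 of 29 genes, with a median of 0.15, and no call was left in the fits without any 1 of the 4 STAT3KO libraries. These comparisons share libraries with the STAT3KO comparisons above.

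Replicate number was tested as a term beside the 4 group means. Of the 29 genes, 9 were called lower in replicate 2 and 0 higher, where 12.4% of all genes were called lower and 10.7% higher. In the filtered limma fits on RPKM (pseudocounts 1 and 0.1), 11 of 27 were called lower, beside 1436 and 1412 of all 10688 genes. Without a filter 7 of 59 were, beside 732 of all 17623 genes. The count rested on tool and library: it was 4 by DESeq2, 1 without either WT CD8 library, 3 without either WT CD4 library, 4 without either STAT3KO CD4 library and 5 without either STAT3KO CD8 library. The value was below 0 for 26 of 29 (50.6% of all genes), with a median of -0.62 (-0.0037 over all genes). In 14 of the 29 genes replicate 2 was below replicate 1 in each of the 4 groups, where 22.6% of all tested genes were. Same-numbered libraries varied together between groups, so the 4 groups are not independent comparisons. Whether same-numbered CD4 and CD8 libraries of a genotype come from the same pool is not stated.

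Of the linker histone genes, 4 of 5 tested were called lower. From replicate 1 to replicate 2, H1f3 went from 3.69 to 1.09 CPM among WT CD4 T cells, 6.83 to 1.98 among WT CD8, 3.95 to 2.38 among STAT3KO CD4 and 4.82 to 3.38 among STAT3KO CD8 (log2 difference -1.15, SE 0.23, edgeR adjusted p 0.00693). H1f2 fell by 0.59 on the log2 scale (SE 0.13, adjusted p 0.0113), with the CPM given above. H1f5 (-1.02, adjusted p 0.0208) and H1f4 (-0.83, adjusted p 0.0276) were lower in replicate 2 of every group as well. DESeq2 also called these 4 genes. Without either WT CD8 library H1f3 alone was still called (adjusted p 0.0489 without replicate 1 and 0.0429 without replicate 2), while H1f2 had adjusted p 0.0684 and 0.0641, H1f5 0.101 and 0.0943 and H1f4 0.142 and 0.133. H1f4 also lost its call without replicate 1 (adjusted p 0.0577) or replicate 2 (0.0558) of WT CD4 T cells. The drop was larger between the WT than between the STAT3KO libraries: for the summed H1 genes, replicate 2 held 0.438 of the level of replicate 1 in WT CD4 and 0.462 in WT CD8, but 0.860 with STAT3 deleted in CD4 and 0.770 in CD8 T cells. This difference between genotypes was not tested.

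Of the core histone genes, H4c3 (log2 difference -1.17, SE 0.33, adjusted p 0.0283), the H2A gene H2ac20 of Hist2 (-1.11, SE 0.31, adjusted p 0.0284), the H3 gene H3c6 (-0.99, SE 0.32, adjusted p 0.0464) and the H2B genes H2bc18 of Hist2 (-0.84, adjusted p 0.0400) and H2bc3 (-0.94, adjusted p 0.0493, named after its values were seen) were called lower. DESeq2 called none of these 5 core genes (adjusted p 0.162, 0.198, 0.276, 0.119 and 0.167 in the same order). In the GENCODE transcript of H2bc18, 0% of stretches of 51 bases were unshared, so its value may hold reads of other genes. In edgeR, H4c3, H2ac20, H3c6 and H2bc3 were called in no fit without one library, and H2bc18 only in those without either STAT3KO CD8 library (adjusted p 0.0285 and 0.0280). H4c3 went from 13 to 4 counts among WT CD4 T cells, 19 to 10 among WT CD8, 14 to 9 among STAT3KO CD4 and 18 to 7 among STAT3KO CD8. The 3 genes above 0 were H2bc21 (0.23, SE 0.10, adjusted p 0.131), H2bc8 (0.12) and H2ac8 (0.064). H2bc21 was higher in replicate 2 of each group. By cluster the summed level in replicate 2 relative to replicate 1 was 0.492 for Hist1 among WT CD4 T cells, 0.512 among WT CD8, 0.859 among STAT3KO CD4 and 0.816 among STAT3KO CD8. In the same order it was 1.17, 0.873, 0.996 and 0.962 for Hist2 and 0.669, 0.713, 1.16 and 1.11 for Hist3.

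**Figure D4:**
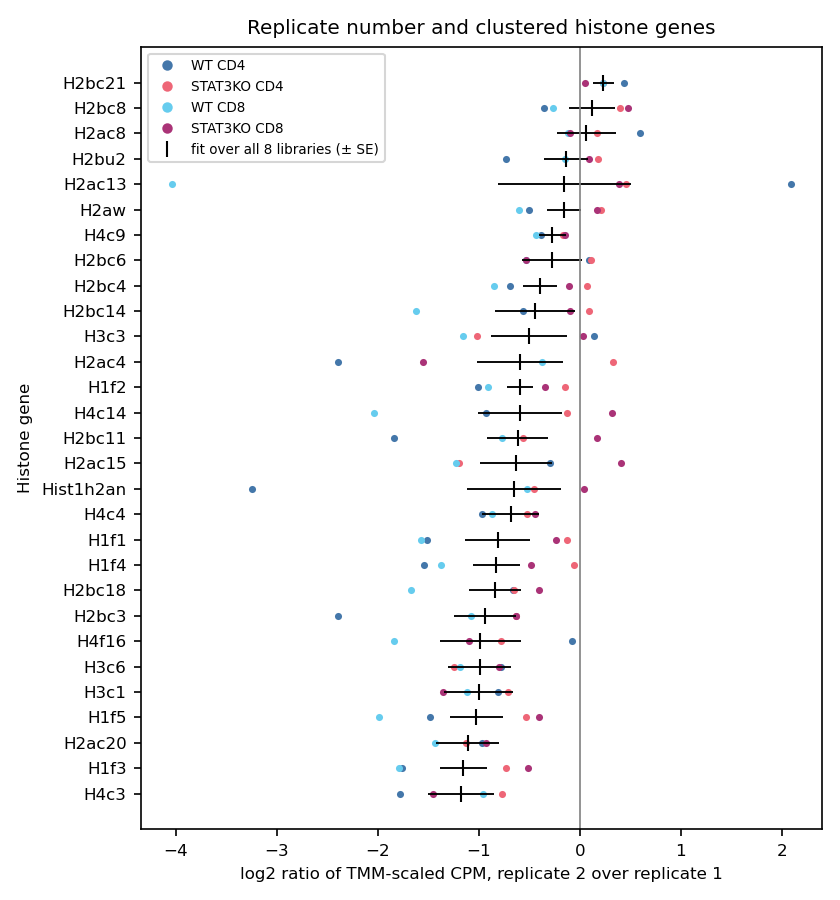
log2 ratio of TMM-scaled CPM in replicate 2 over replicate 1 for the 29 tested histone genes, with 1 point per group and the edgeR estimate over all 8 libraries (black mark, ± SE). Points lie left of 0 in most groups, and the WT points of the H1 genes lie further left than the STAT3KO points.

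The annotated poly(A) signal was set beside this difference as a description. For the 9 tested genes with a signal near the end of a GENCODE transcript the median log2 difference between replicates was -0.27, with 1 gene called (H1f2), and for the 20 others it was -0.75, with 8 called. In the STAT3KO comparison in CD4 T cells the medians were 0.48 and 0.79. All 9 genes with a signal and 17 of the 20 others were above 0 there.

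Other measures differed between the replicate numbers. The RNAs fixed as a list because they are made without a poly(A) tail also summed to less in replicate 2 of every group. Over the 129 genes in the table the sum went from 21892 to 3781 CPM among WT CD4 T cells, 19190 to 11891 among WT CD8, 20554 to 10480 among STAT3KO CD4 and 14000 to 12331 among STAT3KO CD8. Of the 64 tested, 5 were called lower in replicate 2 and 2 higher, which are smaller shares than the 12.4% and 10.7% of all genes. The ribosomal RNA precursor Rn45s, which makes up most of this sum, fell by 1.08 (adjusted p 0.0256). The 7 macrophage markers summed to 19.6 to 53.9 CPM in the replicate 1 and 58.0 to 119 CPM in the replicate 2 libraries, 6 of the 7 were called higher in replicate 2, and these ranges did not overlap. The 8 erythroid markers summed to 0.449 to 0.605 CPM in replicate 1 and 1.32 to 5.95 CPM in replicate 2, with the 4 globin genes at 0. The 2 erythroid markers that were tested were both called higher in replicate 2. The part of these measures in the histone difference was not tested.

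The machinery that makes and processes histone mRNA was read from lists fixed by name. Of 19 genes for transcription and 3′ processing, 4 were called higher in STAT3KO CD4 T cells (6.54% of all genes) and 0 lower, with a median of 0.23. Slbp, whose protein binds the stem-loop, read 81.8 and 81.7 CPM in the WT pair and rose to 115 and 129 CPM in the STAT3KO pair (log2 fold change 0.58, adjusted p 0.0149). Ncbp2 (0.82), of the nuclear cap-binding complex, and Ccne1 (0.54) and Cdk2 (0.39), the cyclin E kinase that activates histone transcription, were the others. Npat (0.095, adjusted p 0.770), Casp8ap2 (0.23, adjusted p 0.232) and Lsm11 (0.64, adjusted p 0.124), parts of the histone locus body and of the U7 particle that cuts histone pre-mRNA, were not called in the main comparison. With the block 9 of 19 were called higher (16.5% of all genes), Lsm11 among them (adjusted p 0.00721). In CD8 T cells 0 of 19 were called. With the block 5 were called higher there and 0 lower, beside 1278 of all 12428 genes called higher. Between replicates 7 were lower (12.4% of all genes) and 1, Npat, higher (10.7%) in replicate 2.

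Of 16 genes for histone chaperones and importers, which carry histones to DNA, 4 were called higher in STAT3KO CD4 T cells and 1, Ipo4 (-0.75), lower, where 6.54% of all genes were called higher and 5.08% lower. Asf1b, which hands H3 and H4 to the assembly factors, rose from 39.6 and 26.5 to 73.9 and 64.7 CPM (log2 fold change 1.07, adjusted p 0.0238), and Nasp, a chaperone of H1 and H3, from 99.6 and 107 to 138 and 157 CPM (0.51, adjusted p 0.0300). Chaf1a (1.04, adjusted p 0.0546) and Chaf1b (0.35, adjusted p 0.134), subunits of the chromatin assembly factor at replication forks, were not called, and were with the block (adjusted p 0.00101 and 0.0427). With the block 9 were called higher (16.5% of all genes) and 1 lower. None was called in CD8 T cells. With the block 3 of 16 were called higher there and 0 lower, beside 1278 of all 12428 genes called higher. Between replicates Asf1b (-0.37), Chaf1a (-0.40), Hira and Ssrp1 were called lower in replicate 2, 4 of 16 beside 12.4% of all genes.

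Of the 29 DNA replication genes, 22 were called higher in STAT3KO CD4 T cells (6.54% of all genes) and all 29 had a value above 0, with a median of 0.92. In CD8 T cells 0 were called, with a median of 0.18. With the block 7 of 29 were called higher there and 0 lower, beside 1278 of all 12428 genes called higher. Tested as an interaction, the CD8 effect was below the CD4 effect for all 29, with a median difference of -0.60. In the main fit 0 of 29 were called for this difference. With the block 13 were called lower, beside 259 of all 12428 genes. The summed level of the 29 genes went from 1749 CPM in replicate 1 to 1528 CPM in replicate 2 of WT CD4 T cells. It went from 4352 to 3538 among WT CD8 and 2726 to 2775 among STAT3KO CD4, and was 4493 in both STAT3KO CD8 libraries. Between replicates 5 of 29 were called lower and 1 higher, near the 12.4% of all genes for the lower calls and below the 10.7% for the higher, with a median of -0.076.

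Of 9 tested replication-independent histone variants, 2 were called higher in STAT3KO CD4 T cells (Cenpa, the centromeric H3, 0.69, and H2az2, 0.63) and 1 lower (the linker histone H1f0, -0.44), where 6.54% and 5.08% of all genes were. With the block 4 were called higher (16.5% of all genes), H2az1 (adjusted p 0.0125) and H2ax being added, and 1 lower. In CD8 T cells H2az1, an H2A variant at gene starts, was called higher (1.08, adjusted p 0.0256), 1 of 9 beside 166 of all 12428 genes. With the block H3f3a, a replacement H3 gene, was higher there as well (0.81, adjusted p 0.00302) and H1f0 lower (-0.50, adjusted p 0.00483), so that 3 of 9 were called beside 18.2% of all genes. H2ax, the H2A variant phosphorylated at DNA breaks, went from 57.1 CPM in replicate 1 to 31.2 CPM in replicate 2 of WT CD4 T cells, 131 to 77.8 among WT CD8, 95.7 to 75.8 among STAT3KO CD4 and 127 to 113 among STAT3KO CD8. It was lower in replicate 2 of each group (-0.52, adjusted p 0.00686), and its value in STAT3KO against WT CD4 T cells was 0.96 (adjusted p 0.0997, and 0.000847 with the block). H3f3b, which codes for the replacement histone H3, was higher in replicate 2 (0.32, adjusted p 0.00949), with a CD4 value of -0.049 (adjusted p 0.906).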

How the data were processed

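Per the study's methods, the authors aligned single-end reads to mm10 with STAR, counted them per RefSeq gene with HTSeq and deposited the raw counts and the RPKM values of each gene. Low counts were removed by filterByExpr (at least 10, by group). The 12428 genes kept were scaled by TMM and fitted over all 8 libraries with a mean per group in edgeR 4.0.16 (R 4.3.3) by the quasi-likelihood test, two-sided, with a Benjamini-Hochberg adjusted p under 0.05 over all tested genes. Replicate number was tested as a term beside the group means. Replicate numbers paired the samples: deviations of same-numbered libraries correlated between groups at 0.413 to 0.655 over 12428 genes, so blocked values are given where they change a call or move a count of calls by over 1.5 times. RPKM served for levels between genes and, in limma 3.58.1, as an alternative, as did DESeq2 1.42.0. Scripts were tested on simulated data. Intervals and floors cover counting error only. The label's library kit differs from the one in the methods, both are named for mRNA, and its growth and treatment texts describe other cells and were not used.

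Symbols were matched through RefSeq synonyms (GRCm38.p6) and transcripts taken from GENCODE M21. Genes named are, per histone type, the 4 tested with the highest mean CPM, all tested genes of Hist2, Hist3 and Hist4, the 3 highest and 3 lowest log2 values of the STAT3KO and replicate comparisons, and 12 fixed genes of the lists or Stat3. The members and lists were chosen with earlier results of these data known. One marker gene is not reported here.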

Additional observations from a re-analysis of the deposited data

Results flagged for a closer look

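H2ac4, an H2A gene of the Hist1 cluster, had values of opposite sign in the 2 compartments, 1.59 in CD4 (adjusted p 0.247) and -1.03 in CD8 T cells (adjusted p 0.474), and passed the test in neither, with both STAT3KO libraries above both WT libraries in CD4 T cells (0.400 and 0.503 against 0.249 and 0.0473 CPM) and below both in CD8 T cells (0.530 and 0.180 against 0.821 and 0.632 CPM). The CD8 effect minus the CD4 effect was -2.62 on the log2 scale (SE 1.05, edgeR adjusted p 0.585), so the difference did not pass the test. These values rest on 1 to 19 counts per library. The gene was flagged for this same difference. Only the WT CD8 pair had at least 10 counts in both libraries (19 and 15). Passing the filter through that pair can favour this pattern, so the separation of the libraries adds no support.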

How the results depend on the processing

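The count of histone genes called higher in STAT3KO CD4 T cells was 1. It was 2 with the replicate block, 2 in each of the limma fits on RPKM (pseudocounts 1 and 0.1, and 1 without a filter) and 0 in the 4 CD4 libraries alone, with fewer samples. It lay between 0 and 1 without one library. The count in CD8 against CD4 T cells of WT was 3, and was 8 with the block, 5 in both filtered limma fits and 1 to 5 without one library. In STAT3KO it was 2, and 0 in the unfiltered limma fit and in each fit without one library. Between replicate numbers it was 9, and was 4 by DESeq2 and 1 to 5 without one library, the lowest without either WT CD8 library. In both filtered limma fits the count between replicate numbers was 11, and it was 7 in the unfiltered limma fit. The cause of these changes was not tested, apart from the smaller number of libraries. The CD8 effect and the interaction stayed at 0 in every alternative run. The block changed no call of the clustered histone genes other than those given. Among 26 named members no called value changed sign, and 153 of 2088 values did so without a call. Without the H1 genes, an alternative chosen after seeing the data, the medians moved by less than the spread between replicates.

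The limits are the depth, with 10 or more counts in every library for only 12 of the 61 genes, the shared sequence of the copies, 2 pools per group, and library kits named for mRNA, which hold little of the form without a poly(A) tail. The filter lets a gene pass through the groups where it is high, so counts and medians over the 29 tested genes describe only those.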
